A study of Mus musculus with 10 samples.

Results

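The genes described are 10 members of the transforming growth factor beta (TGF-beta) pathway: the ligands Tgfb1, Tgfb2 and Tgfb3, the receptors Tgfbr1, Tgfbr2 and Tgfbr3, the signal transducers Smad2 and Smad3, the inhibitory Smad7, and Nrros, a protein that presents latent TGF-beta on microglia. They were picked by symbol out of 56884 rows of the gene count table, and all 10 were among the 17622 genes with enough counts to be tested. The 10 genes were selected as a pathway with the DHT-against-void results of these same mice already known, so their differences between the groups are given as a description, with no p for a single member. Bulk RNA-seq gave 1 library from the hippocampus of each of 10 female P301S (PS19) mice, of which 5 received a void implant and 5 an implant with DHT. Every mouse carried human Tau with the P301S mutation, driven by the mouse prion protein promoter, so no group without the transgene was compared. The ovary-intact females received the implant at 6 months of age, either empty (void) or holding 10 mm of dihydrotestosterone (DHT, an androgen that cannot be turned into estrogen). Treatment lasted 12 weeks, and PBS-perfused tissue was taken at 9 to 9.5 months. Total counts ranged from 27188854 to 47113661 in void-treated females and from 33523527 to 45947784 in DHT-treated females. Each void-treated mouse has a lower S number in its sample title than any DHT-treated mouse. The labels do not say what this number stands for. If it is a processing order, that order cannot be told apart from treatment.

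TGF-beta is made as a latent dimer that is held in the matrix or on cell surfaces by latent TGF-beta binding proteins, GARP or NRROS, and integrins or proteases free it. The freed ligand brings together the type II receptor TGFBR2 and the type I receptor TGFBR1, betaglycan (TGFBR3) helps to present the ligand, and the receptor kinase phosphorylates SMAD2 and SMAD3, which enter the nucleus with SMAD4. SMAD7 is induced by the signal and shuts the receptors off. In the brain, microglia depend on TGF-beta for their homeostatic gene program, and NRROS-bound TGF-beta1 is a main source of it.

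Regulatory sequence is shown for Tgfbr2, whose levels did not overlap between the groups, and for Tgfb2, the ligand with the highest level. Both lines hold the 250 bases before the annotated start from RefSeq, written 5′ to 3′ on the strand of the gene. The Tgfbr2 window is chr9:116175364-116175613 and the Tgfb2 window is chr1:186705990-186706239, both on the minus strand of GRCm38.p6, and the capitals mark the single match to GAGGAA, the ETS core of sites that PU.1 binds, with TTCCTC being the same letters on the other strand.
Tgfbr2: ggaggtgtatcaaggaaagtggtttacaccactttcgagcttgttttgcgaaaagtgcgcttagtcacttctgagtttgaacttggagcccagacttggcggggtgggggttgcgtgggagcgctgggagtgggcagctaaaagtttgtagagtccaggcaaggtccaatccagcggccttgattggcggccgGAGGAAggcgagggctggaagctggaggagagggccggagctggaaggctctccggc
Tgfb2: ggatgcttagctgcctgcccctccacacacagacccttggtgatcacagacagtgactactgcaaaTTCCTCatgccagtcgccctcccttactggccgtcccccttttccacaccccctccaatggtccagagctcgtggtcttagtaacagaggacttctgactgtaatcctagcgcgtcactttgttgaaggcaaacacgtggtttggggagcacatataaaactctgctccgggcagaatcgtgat
Promoters were searched for 6 of the members, namely Tgfb1, Tgfb2, Tgfbr1 with 2 starts, Tgfbr2, Smad3 and Nrros. Tgfb3 and Tgfbr3 had no entry. Each window was searched on both strands for GAGGAA, for AGGTCA (a nuclear receptor element of the kind that TR4, the nuclear receptor that the study examined, binds) and for GTCTAGAC (the palindrome that SMAD3 binds). GAGGAA was found in the windows of Tgfb2, Tgfbr2 and the second start of Tgfbr1, and the other motifs were in none of the 7 windows. Over all 32851 promoters in the table, 23.3% of windows of the same length held GAGGAA, 14.0% held AGGTCA and 0.167% held GTCTAGAC. These matches describe letters and are not evidence of binding.

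Levels are given as CPM, a gene's counts relative to the total of its library after edgeR's TMM scaling, and differences as log2 fold changes of DHT over void from edgeR's quasi-likelihood fit, with the standard error (SE). Across the 10 genes, the 3 receptors and Tgfb1 had higher mean levels with DHT, while Tgfb3, Smad2, Smad3 and Smad7 differed by less than 0.2 on the log2 scale. A call required a p under 0.05 after Benjamini-Hochberg adjustment over all genes tested. By that rule 4 of the 10 genes were called higher with DHT (Tgfb1, Tgfbr1, Tgfbr2 and Tgfbr3) and 0 lower, beside 5.22% of all genes called higher and 0.261% called lower. At an unadjusted p under 0.05, 4 of them were higher and 1 lower in edgeR, beside 13.1% and 4.22% of all genes tested. DESeq2 called 4 of them higher and 0 lower, beside 1228 higher and 233 lower over all genes tested. Because the genes were chosen with this contrast known, nothing is read from these counts. The median log2 fold change was 0.25 over the 10 genes and 0.01 over all genes tested. In 8 of the 10 genes the log2 fold change was positive and in 2 negative, beside 9227 and 8395 of 17622 genes tested.

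**Figure D1:**
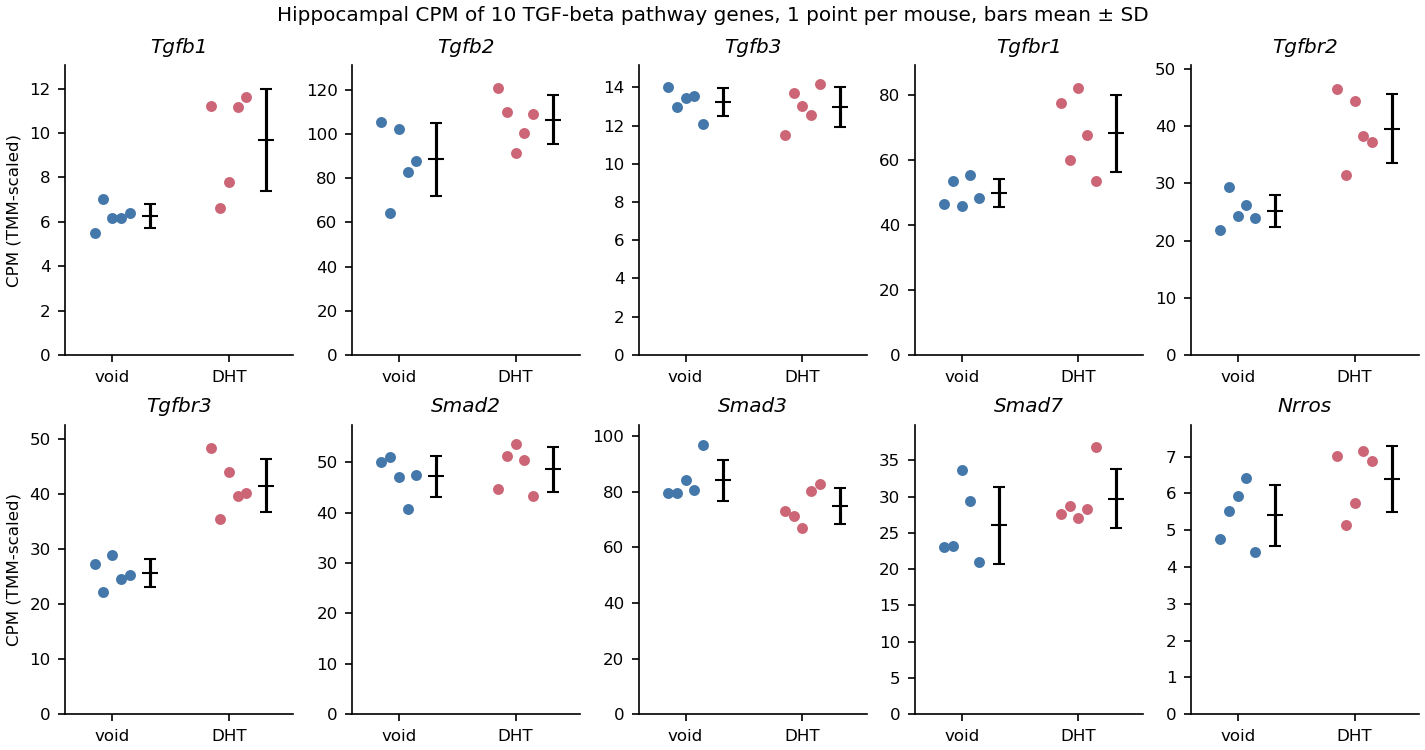
Level (CPM, linear axes from 0) of the 10 genes in each of 5 void-treated mice (blue) and 5 DHT-treated mice (red), with the mean ± SD beside the points. For Tgfbr2 and Tgfbr3 every red point lies above every blue point, and for the other 8 genes the groups overlap.

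Of the ligands, Tgfb1 (ENSMUSG00000002603.16), the form made by microglia and other immune cells, was the least abundant. Its level in void-treated mice 4, 5, 9, 10 and 11 was 5.50, 7.03, 6.17, 6.16 and 6.38 CPM. In DHT-treated mice 1, 2, 3, 5 and 6 it was 11.2, 6.64, 7.79, 11.2 and 11.6 CPM. All DHT-treated mice but mouse 2 were above the highest void-treated mouse, and mice 1, 5 and 6 stood well above mice 2 and 3. The means were 6.25 ± 0.549 CPM with void and 9.69 ± 2.30 CPM with DHT (SD, n = 5 each), and the log2 fold change was 0.63 (SE 0.16).

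Tgfb2 (ENSMUSG00000039239.15), a ligand made by neurons and astrocytes, was at 105.5, 64.0, 102, 83.0 and 87.8 CPM in void-treated mice 4, 5, 9, 10 and 11. The DHT-treated mice 1, 2, 3, 5 and 6 were at 121, 110.0, 91.6, 100.5 and 109 CPM. The groups overlapped, with the lowest level in void-treated mouse 5 and the DHT-treated mice 1, 2 and 6 above all void-treated mice. The log2 fold change was 0.27 (SE 0.12), from means of 88.5 ± 16.6 and 106 ± 10.99 CPM (SD, n = 5 each), and it was 0.17 without void-treated mouse 5. Tgfb3 (ENSMUSG00000021253.8), the third ligand, ranged from 12.1 to 14.0 CPM with void and from 11.5 to 14.2 CPM with DHT. Its log2 fold change of -0.03 (SE 0.08) was smaller than its error.

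Tgfbr1 (ENSMUSG00000007613.16), the type I receptor kinase, was at 46.5, 53.5, 45.8, 55.4 and 48.1 CPM in void-treated mice 4, 5, 9, 10 and 11. DHT-treated mice 1, 2, 3, 5 and 6 were at 77.4, 60.0, 82.2, 67.6 and 53.5 CPM. The groups overlapped through DHT-treated mouse 6, whose level was inside the void range, and the other DHT-treated mice were above it. The mean was 49.9 ± 4.34 CPM with void and 68.1 ± 11.9 CPM with DHT (SD, n = 5 each), and the log2 fold change was 0.45 (SE 0.11).

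Tgfbr2 (ENSMUSG00000032440.14), the type II receptor that binds the ligand, gave 21.9, 29.3, 24.3, 26.2 and 24 CPM in void-treated mice 4, 5, 9, 10 and 11. In DHT-treated mice 1, 2, 3, 5 and 6 the values were 46.6, 31.6, 44.4, 38.3 and 37.2 CPM. The groups did not overlap, and the gap between them was set by void-treated mouse 5 and DHT-treated mouse 2. From means of 25.15 ± 2.79 and 39.6 ± 5.99 CPM (SD, n = 5 each), the log2 fold change was 0.66 (SE 0.11).

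Tgfbr3 (ENSMUSG00000029287.15), the co-receptor betaglycan, was at 27.2, 22.3, 28.8, 24.5 and 25.3 CPM in void-treated mice 4, 5, 9, 10 and 11. With DHT, mice 1, 2, 3, 5 and 6 were at 48.3, 35.5, 43.9, 39.6 and 40.2 CPM. These groups were also apart, with DHT-treated mouse 2 again the lowest of its group. The mean was 25.6 ± 2.53 CPM with void and 41.5 ± 4.85 CPM with DHT (SD, n = 5 each), and the log2 fold change was 0.69 (SE 0.09). The fold changes of Tgfbr3, Tgfbr2 and Tgfb1 lay within their errors of each other. Tgfbr2 and Tgfbr3 were thus 2 of 10 genes with every DHT-treated mouse above every void-treated mouse, a pattern seen in 5.39% of all genes tested.

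Smad2 (ENSMUSG00000024563.17) and Smad3 (ENSMUSG00000032402.13), the transducers that the TGF-beta receptors phosphorylate, differed less between the groups than the receptors did. Smad2 ranged from 40.6 to 51.1 CPM with void and from 43.3 to 53.6 CPM with DHT. Its log2 fold change of 0.04 (SE 0.08) was smaller than its error. Smad3 was at 79.4, 79.4, 84.4, 80.8 and 96.8 CPM in void-treated mice 4, 5, 9, 10 and 11, and at 73.3, 71.3, 66.9, 80.3 and 83.0 CPM in DHT-treated mice 1, 2, 3, 5 and 6. DHT-treated mice 1, 2 and 3 were below every void-treated mouse, while mice 5 and 6 were inside the void range. The log2 fold change of Smad3 was -0.17 (SE 0.08), from means of 84.2 ± 7.36 and 74.95 ± 6.63 CPM (SD, n = 5 each).

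Smad7 (ENSMUSG00000025880.12), the inhibitor that TGF-beta signals induce, was at 23.1, 23.1, 33.7, 29.4 and 20.97 CPM in void-treated mice 4, 5, 9, 10 and 11. DHT-treated mice 1, 2, 3 and 5 lay close together between 27.1 and 28.6 CPM, and mouse 6 was at 36.9 CPM. The groups overlapped, and the log2 fold change was 0.19 (SE 0.13). It was 0.10 without DHT-treated mouse 6, 0.09 without void-treated mouse 11 and 0.30 without void-treated mouse 9. Nrros (ENSMUSG00000052384.15), the latent TGF-beta holder of microglia and macrophages, was the gene with the fewest counts, from 147 to 274 per library. Its level was 4.76, 5.53, 5.92, 6.42 and 4.40 CPM in void-treated mice 4, 5, 9, 10 and 11, and 7.02, 5.13, 5.74, 7.15 and 6.88 CPM in DHT-treated mice 1, 2, 3, 5 and 6. DHT-treated mice 1, 5 and 6, which were also the highest for Tgfb1, were above all void-treated mice, and mice 2 and 3 were inside the void range. The log2 fold change of Nrros was 0.24 (SE 0.14), and it was 0.15 without void-treated mouse 11 and 0.16 without DHT-treated mouse 5.

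Among the DHT-treated mice, mouse 2 was the lowest for 4 of the 10 genes and the highest for 0, and mouse 6 was the highest for 4. When the mice were left out singly, the calls of Tgfbr2 and Tgfbr3 held in 10 of 10 fits. Tgfb1 was called in 2 of 10 (without DHT-treated mouse 2 or 3) and Tgfbr1 in 2 of 10 (without DHT-treated mouse 2 or 6), so each lost its call in 8 of 10 fits. The count of members called higher was thus 4 without DHT-treated mouse 2, 3 without DHT-treated mouse 3 or 6, and 2 without any of the other mice, void-treated mouse 9 with its high choroid plexus markers included. The log2 fold changes stayed between 0.54 and 0.74 for Tgfb1, between 0.35 and 0.53 for Tgfbr1, between 0.56 and 0.73 for Tgfbr2 and between 0.60 and 0.75 for Tgfbr3. Smad2 was the member whose direction changed when a mouse was left out, with a range of -0.02 to 0.08.

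To order the genes by abundance, levels were divided by the length of annotated exon (CPM per kilobase). Tgfb2 and Smad3 were the most abundant in void-treated mice, at 15.3 ± 2.87 and 15.2 ± 1.33 CPM per kilobase (SD, n = 5), and did not differ beyond their spread. Tgfbr1 followed at 7.63 ± 0.665, then Smad7 at 5.76 ± 1.17 and Smad2 at 5.38 ± 0.463, which overlapped. Tgfbr3 and Tgfb3 had nearly equal levels of 3.92 ± 0.387 and 3.91 ± 0.216, and Tgfbr2 lay below them at 3.07 ± 0.341. Nrros at 1.29 ± 0.198 and Tgfb1 at 1.24 ± 0.109 were lowest and overlapped. In DHT-treated mice Tgfb2 (18.4 ± 1.90), Smad3 (13.5 ± 1.20), Tgfbr1 (10.4 ± 1.81) and Smad7 (6.57 ± 0.894) kept the first 4 places. Tgfbr3 (6.34 ± 0.742) stood above Smad2 (5.54 ± 0.506), Tgfbr2 (4.84 ± 0.732) above Tgfb3 (3.84 ± 0.307) and Tgfb1 (1.92 ± 0.456) above Nrros (1.53 ± 0.215).

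**Figure D2:**
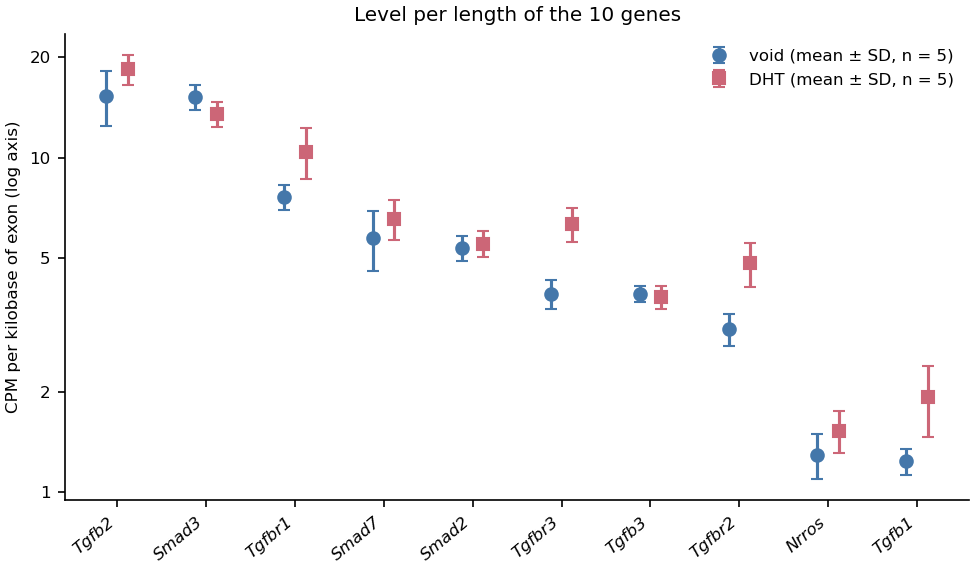
Level per length (CPM per kilobase of annotated exon, log axis) of the 10 genes in void-treated (blue) and DHT-treated (red) mice, as mean ± SD over 5 mice per group, ordered by the void mean. Tgfb2 and Smad3 are highest in both groups, and Tgfb1 and Nrros are lowest in both.

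Within the pathway the balance of the members was compared per length in each mouse. Tgfb2 made up 74.4% ± 4.003 of the summed ligand level with void and 76.05% ± 2.13 with DHT (SD over 5 mice each). Tgfb1 made up 6.23% ± 1.48 and 7.94% ± 1.65, and Tgfb3 19.4% ± 2.62 and 16.01% ± 1.95. Each of the 3 shares overlapped between the groups. The ratio of Tgfbr1 to Tgfbr2 was 2.49 ± 0.169 with void and 2.16 ± 0.231 with DHT, and that of Tgfbr3 to Tgfbr2 was 1.30 ± 0.245 and 1.32 ± 0.0636. The ratio of Smad3 to Smad2 was 2.84 ± 0.354 and 2.47 ± 0.405. All 3 ratios overlapped between the groups.

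Cell type markers moved with treatment in these bulk samples. The summed level of 8 microglia markers (Aif1, Csf1r, C1qa, C1qb, C1qc, Fcer1g, Laptm5 and Ctss) ranged from 277 to 376 CPM with void and from 453 to 796.5 CPM with DHT, and 8 of 8 were called higher. The sum of 12 choroid plexus markers, led by Ttr, ranged from 113 to 1837 CPM with void and from 2077 to 2941 CPM with DHT, with 5 of 12 called. Void-treated mouse 9 held the highest choroid plexus sum of its group and void-treated mouse 5 the lowest. Marker sums overlapped between the groups for endothelium (0 of 8 called), pericytes and smooth muscle (0 of 6), oligodendrocytes (0 of 5), astrocytes (1 of 6, Gfap) and meningeal fibroblasts (1 of 8, Igf2). The 7 neuron markers summed to between 5628 and 6426 CPM with void and between 5062 and 5723 CPM with DHT, with 0 called. Neuron, astrocyte and oligodendrocyte markers were present in every mouse. These are cell type markers, so their presence does not tell the hippocampus from other brain regions. No marker on these lists was at 0 in all mice. In bulk tissue, more cells of a type and more RNA of a gene per cell cannot be told apart.

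The fold changes of the 10 genes were therefore also fitted with a marker level as a covariate, taken as the mean log2 CPM of the list. With the choroid plexus markers as covariate, the log2 fold changes of Tgfb1, Tgfbr1 and Tgfbr2 were 0.74 (SE 0.27), 0.52 (SE 0.20) and 0.74 (SE 0.19), each at least as large as without it. Tgfb2 went from 0.27 to -0.08 (SE 0.16), Smad7 from 0.19 to -0.13 (SE 0.19), and Tgfbr3 from 0.69 to 0.46 (SE 0.14). With the microglia markers as covariate, Tgfb1 was at -0.01 (SE 0.34), Tgfbr1 at -0.02 (SE 0.22) and Tgfbr2 at 0.04 (SE 0.18). Tgfbr3 was at 0.38 (SE 0.20), Nrros at -0.42 (SE 0.25) and Smad7 at -0.04 (SE 0.31). The marker levels of the groups did not overlap, so covariate and treatment share most of their variation, and in each of the 2 covariate fits 0 of 17622 genes were called by edgeR.

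**Figure D3:**
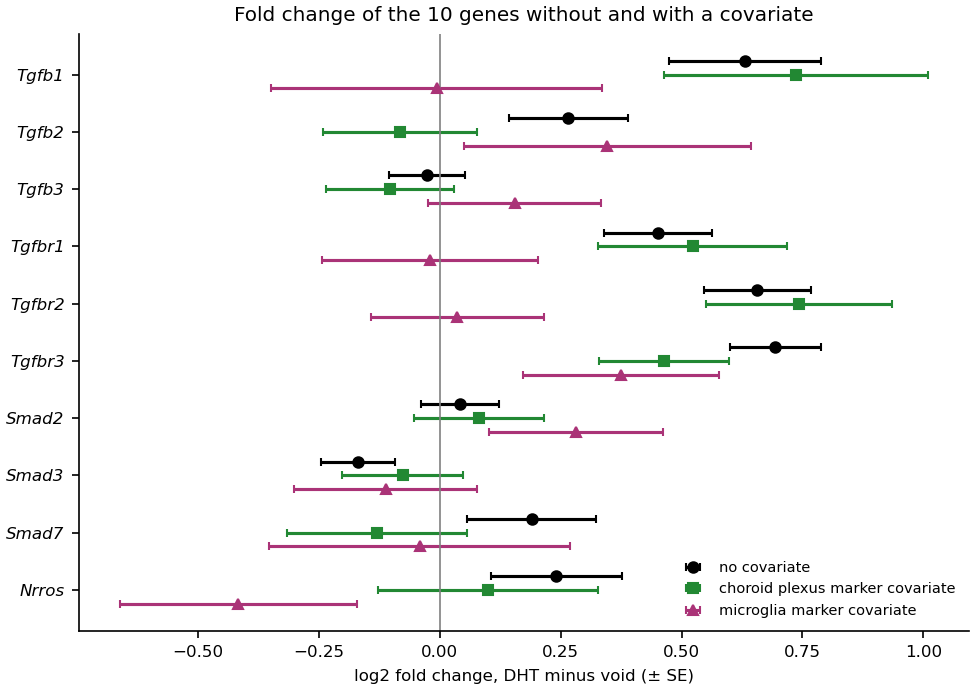
Log2 fold change of DHT over void (± SE) of the 10 genes with no covariate (black) and with a marker covariate. The covariate is the mean log2 CPM of the choroid plexus markers (green) or of the microglia markers (purple). Tgfb1, Tgfbr1 and Tgfbr2 lie above 0 in the black and green fits and near 0 in the purple fit, and Tgfb2 and Smad7 lie above 0 in the black fit and below it in the green fit.

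Microglial transcripts were set beside the genes in another way, as the level of each per 100 summed CPM of a microglial list, a ratio chosen after the values were seen. Per 100 CPM of the 8 microglia markers, Nrros was at 1.72 ± 0.0846 with void and 1.05 ± 0.136 with DHT (SD over 5 mice each), and every DHT-treated mouse was below every void-treated mouse. Tgfbr1 was likewise lower without overlap, at 16 ± 1.52 and 11.2 ± 1.97. Tgfb1 (2.01 ± 0.271 and 1.575 ± 0.288), Tgfbr2 (8.07 ± 0.963 and 6.47 ± 0.545) and Tgfbr3 (8.29 ± 1.40 and 6.82 ± 0.671) overlapped between the groups. The marker sum itself did not overlap between the groups, at 277 to 376 CPM with void and 453 to 796.5 CPM with DHT. On this scale a gene whose CPM differs little between the groups is lower where the markers are higher, as Tgfb3 was, at 4.26 ± 0.533 with void and 2.19 ± 0.572 with DHT. A lack of overlap on this scale is therefore not read as a result about the gene. Smad3 and Smad7 were also lower with DHT without overlap on this scale. For Nrros, Tgfbr1 and Smad7 the picture depended on the denominator. Per 100 CPM of the 11 homeostatic microglial genes named below, whose sum ranged from 372 to 431 CPM with void and from 505.5 to 755.5 CPM with DHT, Nrros was at 1.34 ± 0.214 and 1.12 ± 0.199, Tgfbr1 at 12.3 ± 0.699 and 11.9 ± 1.95, and Tgfbr2 at 6.22 ± 0.683 and 6.92 ± 0.902. These 3 genes and Smad7 overlapped between the groups on that scale. Tgfb3 (3.28 ± 0.264 with void and 2.315 ± 0.484 with DHT) and Smad3 (20.9 ± 2.21 and 13.3 ± 2.53) were again lower without overlap. The sum of this list did not overlap between the groups either.

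**Figure D4:**
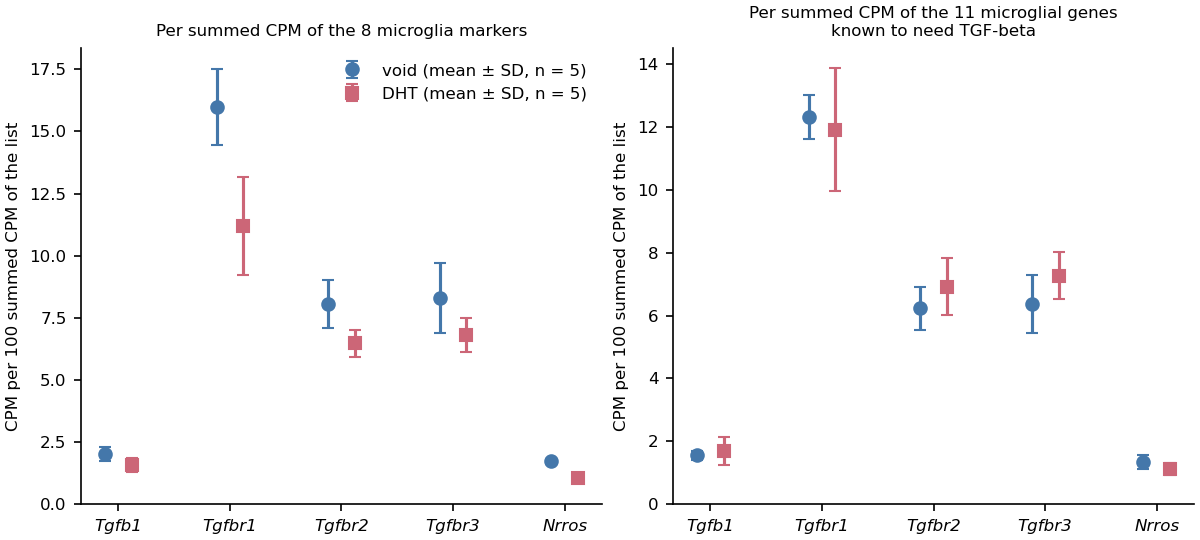
Level of 5 genes per 100 summed CPM of 8 microglia markers (left) and of 11 microglial genes known to need TGF-beta (right), as mean ± SD over 5 void-treated (blue) and 5 DHT-treated (red) mice. Nrros and Tgfbr1 are lower with DHT without overlap on the left and overlap between the groups on the right. Both summed lists are higher with DHT without overlap.

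The rest of the pathway was described with 97 other genes in 8 lists written from general knowledge, of which 92 were tested. Of these, 15 were called higher with DHT and 0 lower by edgeR's quasi-likelihood test, beside 5.22% higher and 0.261% lower over all genes tested, and their median log2 fold change was 0.06. At an unadjusted p under 0.05, 26 were higher and 2 lower, beside 13.1% and 4.22% of all genes tested. DESeq2 called 18 of the 92 higher and 1 lower, beside 1228 higher and 233 lower over all genes tested. The count of higher genes fell when single mice were left out, to 4 without void-treated mouse 11, 5 without void-treated mouse 4 or 5, 6 without DHT-treated mouse 1, and 8 without void-treated mouse 10, DHT-treated mouse 3 or DHT-treated mouse 5. It was 12 without DHT-treated mouse 6 and 16 without void-treated mouse 9 or DHT-treated mouse 2. Microglia and choroid plexus marker sums differed between the same groups, and their part in the results of each list below was not tested beyond the covariate fits.

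Activation of latent TGF-beta was the list with the largest number of calls, 5 of 14 tested, beside 5.22% of all genes, which is also the share to set beside the counts of the lists that follow. Itgb6, an integrin chain that frees TGF-beta on epithelia, was low in both groups, at 0.132 ± 0.108 CPM with void and 0.559 ± 0.220 CPM with DHT (SD, n = 5 each), with a log2 fold change of 2.06 (SE 0.46, adjusted p = 0.0235). It had only 1 to 10 counts per void library and 8 to 40 per DHT library, so it passed the expression filter mainly through the DHT-treated mice, and it is no longer tested when 10 counts are required in every library. Mmp2, a gelatinase that can release the latent ligand, had a log2 fold change of 0.95 (SE 0.24, adjusted p = 0.0400) and overlapped between the groups. Thbs1, a thrombospondin that activates TGF-beta, rose from 5.03 ± 1.33 to 8.99 ± 1.88 CPM, with a log2 fold change of 0.83 (SE 0.20, adjusted p = 0.0321) and no overlap. Ltbp3, a latent TGF-beta binding protein, and Fbn1, the fibrillin that anchors these proteins, were named after their values were seen and had log2 fold changes of 0.61 (SE 0.13, adjusted p = 0.0213) and 0.41 (SE 0.09, adjusted p = 0.0256). Itgb8, the integrin chain that works with NRROS in the brain, did not pass, at 135.5 ± 6.15 and 171 ± 28.4 CPM (log2 fold change 0.33, SE 0.10, adjusted p = 0.0812), and is likewise named after its values were seen. With each mouse left out in turn, Itgb6 and Thbs1 were called in 4 of 10 fits and Mmp2 in 2 of 10, with adjusted p of up to 0.0669, 0.110 and 0.123 from edgeR's test. With the choroid plexus covariate the log2 fold change of Itgb6 was 0.67 and that of Mmp2 was 0.17.

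Other receptors of the superfamily, such as activin and BMP receptors, gave 0 of 12 called by edgeR, with a median log2 fold change of 0.00. At an unadjusted p under 0.05, 1 was higher and 1 lower, and DESeq2 called the same number in each direction. Those with the lowest p were Vasn, a trap for TGF-beta, at 0.80 (SE 0.24, adjusted p = 0.0833, and 1.12 with adjusted p = 0.00176 without void-treated mouse 9), and Acvr1c, the receptor ALK7, at -0.30 (SE 0.09, adjusted p = 0.0910). Vasn shares 160 bases of exon with Dnaja3 on the same strand, so reads of these genes can be confused. Other SMADs and their partners gave 0 of 7 called, with 1 at an unadjusted p under 0.05 and 1 called by DESeq2. The inhibitory Smad6 was at 0.75 (SE 0.22, adjusted p = 0.0796) and the BMP-responsive Smad1 at 0.15 (SE 0.07, adjusted p = 0.309). The kinase branch around TAK1 gave 0 of 5 called, 0 at an unadjusted p under 0.05 and 0 by DESeq2, with Tab2 at 0.08 (SE 0.06, adjusted p = 0.538) and Tab1 at 0.17 (SE 0.15, adjusted p = 0.649).

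Inhibitors of the pathway gave 2 of 13 called, both higher and both nuclear corepressors of SMAD2 and SMAD3. Tgif1 rose from 1.64 ± 0.368 to 3.33 ± 0.648 CPM (SD, n = 5 each; log2 fold change 1.04, SE 0.19, adjusted p = 0.0113), without overlap and in 10 of 10 fits with a mouse left out. Tgif2 rose from 1.14 ± 0.301 to 2.001 ± 0.203 CPM (log2 fold change 0.81, SE 0.18, adjusted p = 0.0250), also without overlap, but was called in 4 of 10 such fits, with an adjusted p of up to 0.0820. The gene 5430405H02Rik shares 2171 bases of exon with Tgif2 on the opposite strand and was at 5.15 CPM with void and 5.58 CPM with DHT, and since the use of strand in counting is not stated, reads of the pair may be mixed. The feedback inhibitors Ski, Skil and Bambi, named after their values were seen, did not pass, with log2 fold changes of 0.04, 0.05 and 0.03. They do not stand for the whole list, in which 10 log2 fold changes were positive and 3 negative. Of its genes that were not called, Pmepa1 had the highest log2 fold change, 0.19 (SE 0.09, adjusted p = 0.298 from edgeR's test). Nedd4l had the lowest, -0.17 (SE 0.08, adjusted p = 0.27 from the same test).

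Other ligands of the superfamily gave 2 of 12 called, both bone morphogenetic proteins. Bmp6 rose from 11.8 ± 3.94 to 25.8 ± 3.83 CPM (SD, n = 5 each; log2 fold change 1.13, SE 0.19, adjusted p = 0.00965), without overlap and in 10 of 10 fits with a mouse left out. Bmp7 had a log2 fold change of 0.71 (SE 0.19, adjusted p = 0.0444), was called in 2 of 10 such fits (adjusted p of up to 0.129) and lost its call with DESeq2 size factors. With the choroid plexus covariate the log2 fold change was 0.68 for Bmp6 and 0.81 for Bmp7. Txndc5 shares 224 bases of exon with Bmp6 on the opposite strand and was at 51.5 CPM with void and 56.8 CPM with DHT. Reads of this pair may be mixed too.

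Textbook targets of TGF-beta signalling gave 3 of 18 called, all higher. The median log2 fold change of the list was -0.01, beside 0.01 over all genes tested. Of the 18, 10 were negative, beside 8395 of 17622 over all genes tested. At an unadjusted p under 0.05, 5 targets were higher and 0 lower, and DESeq2 called 4 higher and 0 lower. Cdkn1a, the cell cycle inhibitor p21 and also a p53 target, rose from 7.14 ± 0.796 to 12.8 ± 2.38 CPM (SD, n = 5 each; log2 fold change 0.84, SE 0.13, adjusted p = 0.00761). It was without overlap, and it was called in 10 of 10 fits with a mouse left out. Tgfbi, a matrix protein that macrophages also make, had a log2 fold change of 0.80 (SE 0.20, adjusted p = 0.0386) and was called in 3 of 10, with an adjusted p of up to 0.119. Smad7, itself a direct target, was not called.

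Homeostatic microglial genes that need TGF-beta gave 3 of 11 called, all higher, with a median log2 fold change of 0.38. Of the 11, 10 were positive, beside 9227 of 17622 over all genes tested. At an unadjusted p under 0.05, 8 of 11 were higher, beside 13.1% of all genes tested. Cx3cr1, the fractalkine receptor, rose from 70.3 ± 4.53 to 102 ± 22.6 CPM (SD, n = 5 each; log2 fold change 0.54, SE 0.12, adjusted p = 0.0251), and Gpr34 had a log2 fold change of 0.57 (SE 0.14, adjusted p = 0.0335). With a mouse left out, Cx3cr1 was called in 6 of 10 fits and Gpr34 in 2, with an adjusted p of up to 0.0820 for Cx3cr1 and 0.115 for Gpr34. P2ry12 and Tmem119, named after their values were seen as common homeostatic markers, did not pass, with log2 fold changes of 0.16 (SE 0.10, adjusted p = 0.479) and 0.38 (SE 0.14, adjusted p = 0.148). The 8 microglia markers had a median log2 fold change of 1.05.

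**Figure D5:**
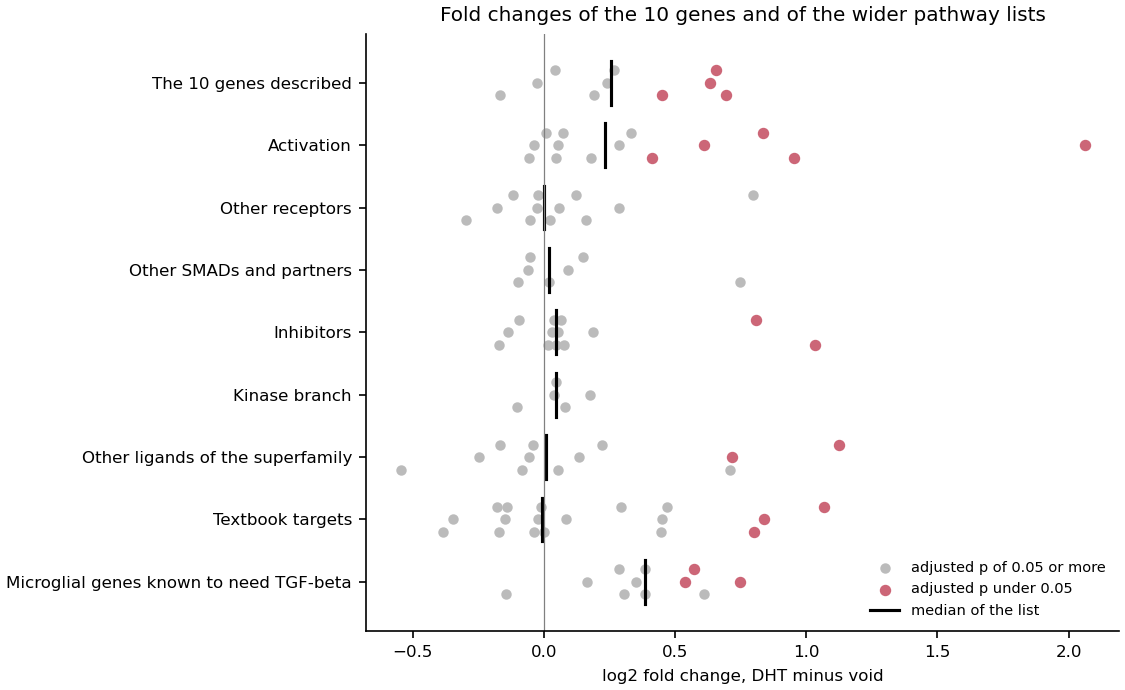
Log2 fold change of DHT over void for the 10 genes described and for 92 tested genes of 8 wider pathway lists, 1 point per gene, with genes at an adjusted p under 0.05 in red, others in grey and the median of each list as a black bar. The red points all lie right of 0, and the medians of the activation, homeostatic microglial and described genes lie between 0.2 and 0.4 while those of the other lists lie near 0.

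Genes with the profile most like a member were sought by the root mean square difference between profiles over the 10 mice, each profile taken as deviations from the means of its own treatment group in SD units, so that the treatment difference is left out. Nearest to Tgfb1 were Tst, Lmo2 and Mknk1, with differences of 0.2535, 0.357 and 0.359, beside a median of 1.38 over all genes. Nearest to Tgfbr1 were E330037G11Rik, Ryk and Fblim1 (0.319, 0.321 and 0.332, beside 1.41), and nearest to Nrros were Ttc7, Dnm2 and Myadml2 (0.224, 0.2285 and 0.273, beside 1.37). With 10 mice and 17622 genes, close profiles such as these are a description of these libraries.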

How the data were processed

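The authors prepared poly-A mRNA libraries (KAPA HyperPrep), trimmed reads with HTStream, aligned them with STAR (2.7.10b per the labels) and deposited raw counts per gene. Their methods name mm10 and their processing notes GRCm39, so gene coordinates of the table are not given. Annotation, strand and treatment of multiply mapped reads are not given in the sources used here. Columns were matched to mice by title, with 0 columns unmapped.

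Symbols and exon lengths came from GENCODE M21, in which 51948 of 56884 identifiers and all 167 list entries were found. Promoters came from RefSeq (GRCm38.p6). The count model was edgeR 4.0.16 under R 4.3.3 (TMM, filterByExpr, quasi-likelihood test, Benjamini-Hochberg adjustment over 17622 genes, all 10 mice, no covariate). SE is the absolute log2 fold change over the square root of F. DESeq2 1.42.0, DESeq2 size factors, library size alone, 2 other filters, marker covariates, a fold limit and leaving out each mouse were alternatives. The fits were also run on simulated counts holding 200 changed genes, as many raised as lowered. In these data 5.22% of genes were called higher and 0.261% lower, an imbalance that the simulation does not cover. Named genes are all members, up to 3 called genes in each direction with the largest change per pathway list or, where none was called, the 2 with the lowest p, and the 3 nearest profiles of Tgfb1, Tgfbr1 and Nrros. Some genes that this rule names are counted but not reported here. The members, lists and tests were chosen with earlier results of these data known.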

Additional observations from a re-analysis of the deposited data

Results flagged for a closer look

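Each group of 5 mice was examined for a mouse whose gap to its nearest neighbour, divided by the range of the group, exceeded Dixon's limit of 0.71. Of 54 groups (the members and the pathway genes named in the text), 5 held such a mouse, where chance alone would give about 2.7. Among the members, Smad3 had its highest level far from the rest in void-treated mouse 11 (gap 0.715 of the range, 96.8 CPM), and without that mouse the log2 fold change of Smad3 was -0.14. Smad7 was far above the rest in DHT-treated mouse 6 (gap 0.842, 36.9 CPM), and the other 4 DHT-treated mice lay within the void range, and without mouse 6 the log2 fold change of Smad7 was 0.10. Of the pathway genes, Vasn (gap 0.795) and Tgfbi (gap 0.714) were highest in void-treated mouse 9, the void-treated mouse with the highest choroid plexus marker sum. Bmp7 was lowest in DHT-treated mouse 2 (gap 0.724).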

How the results depend on the processing

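The paper states that littermates were randomized to treatment, but the sample labels give neither litter nor cohort. No paired or blocked analysis was therefore possible. The count of members called higher was 4 with DESeq2, with library size alone and with 2 other filters, 3 with DESeq2 size factors, and 0 with the choroid plexus covariate, with the microglia covariate and with a log2 fold limit of 1 as well. With a mouse left out it lay between 2 and 4. In the wider lists the count of higher genes was 0 and 0 with those covariates, 4 with the fold limit, and between 4 and 16 with a mouse left out, with the lowest count without void-treated mouse 11. The count of lower genes was 1 with DESeq2 (Acvr1c) and between 0 and 1 with a mouse left out. With the choroid plexus covariate the log2 fold change of Tgfbr3 was 0.46, and the sign turned for Tgfb2 (-0.082), Smad7 (-0.13) and Tab1 (-0.025). With the microglia covariate it was 0.036 for Tgfbr2, 0.38 for Tgfbr3 and 0.28 for Smad2, and the sign turned for Tgfb1 (-0.0066), Tgfb3 (0.16), Tgfbr1 (-0.020), Smad7 (-0.042), Nrros (-0.42), Mmp2 (-0.048), Acvr1c (0.038), Tab1 (-0.050) and Cx3cr1 (-0.061). The cause was not tested. Of 170 refits of member fold changes, 160 moved by less than the spread. By the length of the longest annotated transcript, void levels per kilobase were 2.43 for Tgfb1, 8.66 for Tgfbr1, 16.5 for Smad3 and 1.51 for Nrros, which puts Tgfb1 above Nrros. No setting shifted the median of all genes by more than 0.1. Counts of 147 to 411 per library limit Nrros and Tgfb1 most.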
